A study of Mus musculus with 6 samples.

Results

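Cholesterol and fatty acid metabolism was followed through 34 genes that cover sterol synthesis, its control, fatty acid synthesis, and the uptake, release, export and storage of lipid. The genes were chosen by name from the pathway, with earlier results of these data known; all 34 were present among 19436 genes, and all 34 had a mean of at least 10 in the higher genotype and entered the test. They comprise 18 enzymes of cholesterol synthesis, 5 genes of sterol sensing, 4 of fatty acid synthesis and desaturation, and 7 of uptake, endosomal release, efflux and storage. RNA came from livers of C57BL/6 mouse fetuses at E14.5, in 3 libraries of genotype -77-/- and 3 libraries of wild type. Fetuses labelled -77-/- lack, on both alleles and in all tissues, a distal enhancer of Gata2, the gene of a GATA factor active in early blood progenitors; heterozygous fetuses are not analysed here. Cells of both genotypes were sorted through a gate of medium CD71, the transferrin receptor, without Ter119, a marker of maturing red cells. No label names litter, sex or batch, or says whether a library is 1 embryo or a pool, so p-values measure the spread between these libraries, which may be partly technical.

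Cells make cholesterol from acetyl-CoA through mevalonate, farnesyl diphosphate, squalene and lanosterol. When membrane cholesterol is low, SCAP escorts the SREBP proteins, products of Srebf1 and Srebf2, to the Golgi, and the released factors switch on sterol and fatty acid synthesis genes; INSIG proteins hold SCAP back when sterol is plentiful. Cholesterol taken up with lipoproteins leaves late endosomes through NPC1 and NPC2, is esterified for storage by SOAT enzymes, or is exported by ABCA1 and ABCG1 to particles that carry apolipoproteins such as APOE. Maturing red cells remodel their membranes, while macrophages are known for high sterol export and ester storage.

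Libraries held 16516338 to 20468899 recovered reads, and across genes Pearson's r was 0.908 to 0.936 between libraries of the same genotype. Values are normalized reads, that is reads divided by the authors' size factor of each library. The labelled cell type was checked on 10 erythroid markers: all 10 were lower in -77-/- by limma, and their summed level was 284 to 1272 in -77-/- and 16869 to 17011 in wild type. Of 12 tested monocyte and macrophage markers 8 were higher and none was lower, and all 14 that were measured summed to 26039 to 36681 in -77-/- and 1285 to 2403 in wild type. Within that list the rises lay in markers such as Lyz2, Ccr2 and Csf1r, and in Emr1, a macrophage surface gene with at least 369 in -77-/- and at most 65.7 in wild type (limma adjusted p = 0.0199). Other macrophage genes were low: Mrc1 had at most 55.5 in -77-/- and at most 29.6 in wild type and did not pass, though without overlap, and C1qb, C1qc, Cd163 and Marco did not exceed 39.9 in any library, with C1qc at 0 in wild type. These marker levels moved with genotype in the same libraries as every result below, and their part in those results was not tested. In sorted bulk samples fewer cells of a type and less RNA per cell cannot be told apart.

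The 34 genes divided by role. Genes that release, export and store cholesterol were higher in -77-/-, up to 16.5-fold for Soat1, whereas most enzymes of sterol synthesis and all 5 regulators of SREBP did not pass the test. Scd1, a stearoyl-CoA desaturase, was the gene with the lowest fold change, and fell to 102 ± 85.1 in -77-/-, against 1223 ± 403 in wild type (SD, n = 3 libraries per genotype, here and throughout). In all, 12 members were higher and 2 were lower at a limma adjusted p of 0.05, where 16.9% of all 15821 genes tested were higher and 15.2% lower, together 32.2%. The members' share of higher calls lay above the background and their share of lower calls below it, differences that were not tested. The median log2 fold change (-77-/- over wild type) was 0.19 over the members and 0.10 over all genes tested. In 17 of 34 members the libraries of the genotypes did not overlap, against 46.5% of all genes tested, so that share lay near the background. Count tests on the recovered reads, edgeR and DESeq2, called 14 members each and the authors' deposited table called 14, in every case the 14 called by limma.

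**Figure D1:**
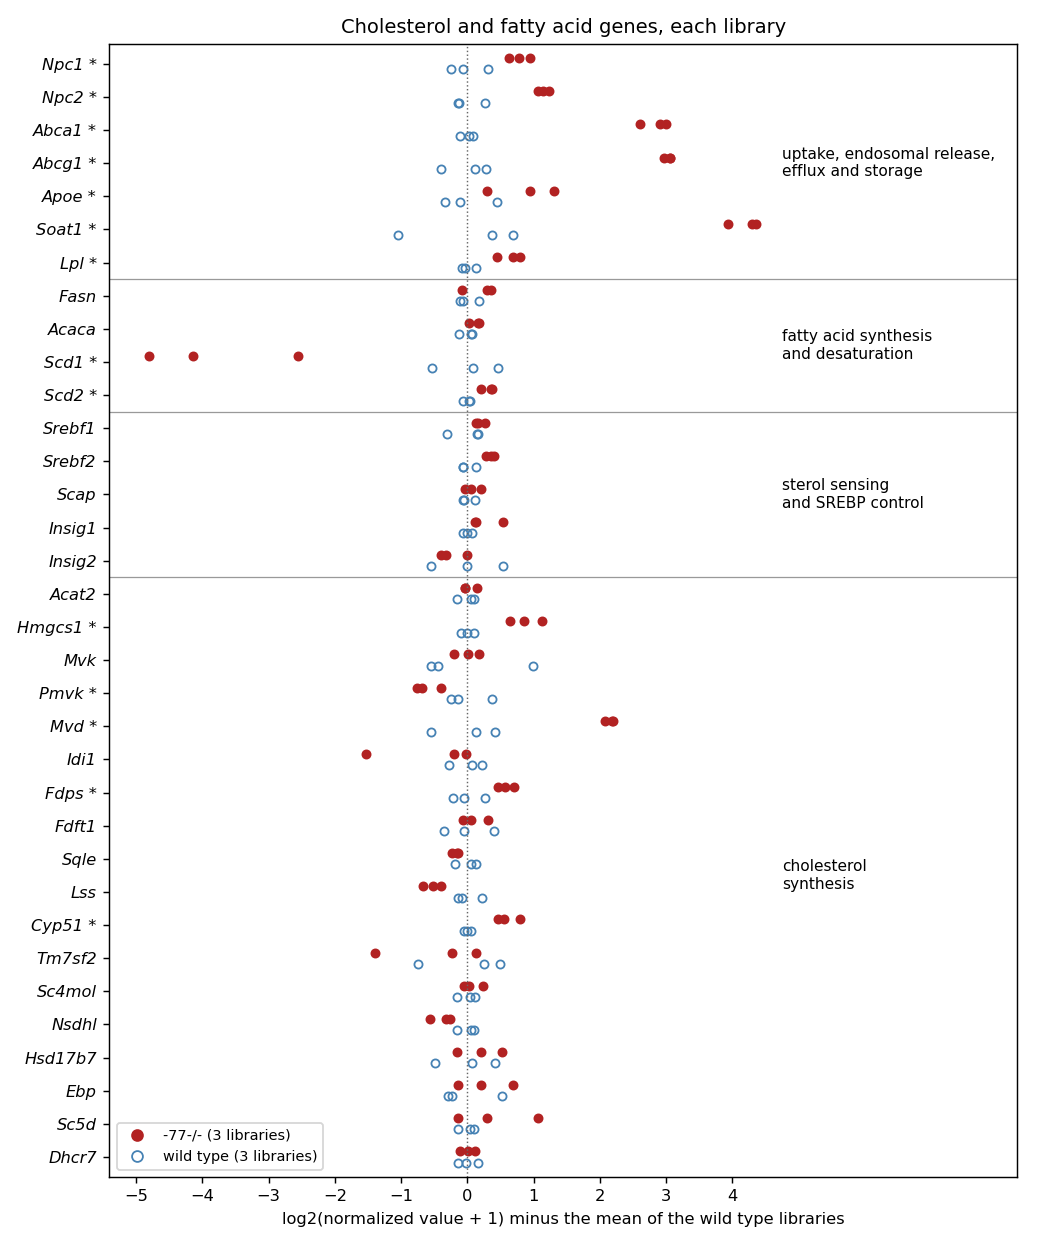
Every member in every library, as log2(normalized value + 1) minus the mean of the wild type libraries, grouped by role; filled points are -77-/-, open points wild type, and an asterisk marks a limma adjusted p of at most 0.05. Soat1, Abcg1 and Abca1 stand far to the right (log2 fold changes 4.20, 3.03 and 2.84), Scd1 far to the left (-3.83), and most synthesis genes lie around 0.

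Cholesterol synthesis moved little in its median, and most of its enzymes did not pass. Of its 18 enzymes 4 were higher (22.2%), 1 was lower (5.56%) and 13 did not pass. Among all genes tested 16.9% were higher and 15.2% lower, and the differences from these shares were not tested. The enzymes' median on the log2 scale was 0.05, against 0.10 over all genes tested, and it turned to -0.06 without wild type library 2. The 4 that rose stand at separate steps of the route. Hmgcs1, which makes HMG-CoA at the entry to the mevalonate route, had 1220.1, 875 and 1016 in -77-/- libraries 1 to 3, against 599, 525 and 555 in wild type libraries 1 to 3 (log2 fold change 0.88 with an SE of 0.18, limma adjusted p = 0.0012). Each -77-/- library exceeded each wild type library. The table holds Hmgcs1 under 2 Ensembl IDs with identical values, which were counted once. Mvd, the decarboxylase that ends the mevalonate steps, had 222, 218 and 203 in -77-/-, against 31.9, 51.9 and 63.8 in wild type (log2 fold change 2.15 with an SE of 0.43, limma adjusted p = 0.0013). It was the synthesis enzyme with the greatest fold, 4.35, with -77-/- libraries close together and wild type libraries spread around a low level. Fdps, the synthase of farnesyl diphosphate, had 2062, 1761 and 1887 in -77-/-, against 1092, 1227 and 1534 in wild type (log2 fold change 0.58 with an SE of 0.15, limma adjusted p = 0.0069). Cyp51, the demethylase of lanosterol, had 1342, 1070.3 and 1136 in -77-/-, against 776, 804 and 749.8 in wild type (log2 fold change 0.60 with an SE of 0.15, limma adjusted p = 0.0070). For Fdps and Cyp51 the genotypes did not overlap either, at 1.48-fold and 1.52-fold.

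The enzyme that fell, Pmvk, acts between Mvk and Mvd. It had 504, 414 and 392 in -77-/-, against 563, 608 and 867 in wild type (log2 fold change -0.62 with an SE of 0.21, limma adjusted p = 0.0385). Its lowest wild type library stood just above its highest -77-/- library, and the call ended without -77-/- library 2 or 3 and without wild type library 2 or 3 (limma adjusted p = 0.109, 0.135, 0.0531 and 0.127, range 0.0285 to 0.135 over its alternatives). Lss, which closes the sterol ring system of lanosterol, had 439, 402 and 363 in -77-/-, against 549, 676 and 522 in wild type, also without overlap, but missed the threshold (log2 fold change -0.53 with an SE of 0.20, limma adjusted p = 0.0586). It passed with limma-voom (adjusted p = 0.0481), with a higher filter on the mean (0.0458) and without wild type library 3 (0.0385; range 0.0385 to 0.195). Thus Pmvk fell while its neighbour Mvd rose, and along the chain as a whole no single direction held.

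The remaining 12 synthesis enzymes did not pass. Acat2, the thiolase that joins acetyl-CoA units, averaged 619 ± 44.1 in -77-/- and 609 ± 56.2 in wild type, and Mvk, the mevalonate kinase, 110.1 ± 14.1 in -77-/- and 125 ± 81.5 in wild type, where wild type library 3 stood at 219 against 80.7 and 74.8 in the other wild type libraries. Fdft1, the squalene synthase, averaged 582 ± 81.2 in -77-/- and 554 ± 150.3 in wild type, and Sqle, the squalene epoxidase and a known control point, 866 ± 24.6 in -77-/- and 984 ± 109 in wild type. Fold changes of these 4 lay between -0.18 and 0.10 on the log2 scale. Without wild type library 3 those of Mvk and Fdft1 were 0.49 and 0.30, and without wild type library 2 that of Mvk was -0.28. Among the late enzymes that trim and reduce the sterol, Dhcr7, the last reductase, averaged 537 ± 43.4 in -77-/- and 535 ± 56.6 in wild type (95% interval of the log2 fold change -0.40 to 0.41), and the methyl oxidase Sc4mol 466 ± 48.9 in -77-/- and 444 ± 41.3 in wild type (95% interval -0.37 to 0.50). For these 2, a change of 2-fold lay outside the interval. Nsdhl, a sterol dehydrogenase, averaged 177 ± 19.5 in -77-/- and 230.03 ± 21.7 in wild type, Hsd17b7, a ketosterol reductase, 329 ± 77.0 in -77-/- and 292 ± 88.9 in wild type, and Tm7sf2, another sterol reductase with few reads, 40.4 ± 19.3 in -77-/- and 55.9 ± 22.4 in wild type. Their log2 fold changes were -0.38, 0.19 and -0.50, none past the threshold.

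Library 1 of -77-/- stood apart in some of these enzymes. Idi1, the isomerase of isopentenyl diphosphate, had 214, 609 and 534 in -77-/-, against 715, 646 and 507 in wild type (log2 fold change -0.58 with an SE of 0.36, limma adjusted p = 0.259), so that library alone fell below wild type. Sc5d, a sterol desaturase, had 595, 256 and 347 in -77-/-, against 255, 290.4 and 304 in wild type, and Ebp, a sterol isomerase, 724, 404 and 517 in -77-/-, against 382, 364 and 640.4 in wild type. Both were highest in that library, and their log2 fold changes of 0.41 and 0.25 came to 0.08 and 0.03 without it. That of Idi1 came to -0.11. Tm7sf2 had 19.3, 44.7 and 57.2 in -77-/-, against 74.1, 30.9 and 62.7 in wild type. Its log2 fold change of -0.50 came to -0.05 without -77-/- library 1. The same library also held the highest summed erythroid markers of its genotype, 1272, against 284 and 426 in -77-/- libraries 2 and 3, and whether this bears on these enzymes was not tested.

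Promoter windows of the 3 risen synthesis genes with a sequence at hand, and of Soat1 as the member with the greatest rise, are printed to show which control motifs lie there. They are RefSeq sequence of build GRCm38.p6, from 250 bases before to 50 bases after a gene's start, 5′ to 3′ on the gene's strand; the deposited table was made on mm9 and carries no coordinates. Capitals mark the sterol regulatory element bound by SREBP, searched as TCACNCCAC, and the CCAAT box of the factor NF-Y, which appears as ATTGG on the opposite strand.
Hmgcs1, chr13:119690101-119690400, strand +: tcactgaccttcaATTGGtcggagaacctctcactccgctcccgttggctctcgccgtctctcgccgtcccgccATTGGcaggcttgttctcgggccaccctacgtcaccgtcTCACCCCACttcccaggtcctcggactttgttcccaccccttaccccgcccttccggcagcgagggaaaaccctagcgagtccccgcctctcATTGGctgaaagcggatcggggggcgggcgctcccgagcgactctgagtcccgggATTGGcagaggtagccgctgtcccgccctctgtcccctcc
Mvd, chr8:122443373-122443672, strand -: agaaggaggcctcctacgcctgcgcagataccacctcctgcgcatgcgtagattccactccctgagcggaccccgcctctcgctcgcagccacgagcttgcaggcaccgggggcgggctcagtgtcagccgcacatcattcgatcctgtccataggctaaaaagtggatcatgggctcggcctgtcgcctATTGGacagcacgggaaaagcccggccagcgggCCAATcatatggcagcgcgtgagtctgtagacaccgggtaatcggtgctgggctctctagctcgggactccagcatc
Cyp51, chr5:4104648-4104947, strand -: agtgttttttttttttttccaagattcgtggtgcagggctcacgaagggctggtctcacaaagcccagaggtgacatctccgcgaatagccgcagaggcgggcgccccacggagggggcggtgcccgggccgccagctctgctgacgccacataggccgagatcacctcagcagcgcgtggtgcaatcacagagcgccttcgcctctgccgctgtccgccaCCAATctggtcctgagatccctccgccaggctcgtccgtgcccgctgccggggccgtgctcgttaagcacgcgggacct
Soat1, chr1:156474279-156474578, strand -: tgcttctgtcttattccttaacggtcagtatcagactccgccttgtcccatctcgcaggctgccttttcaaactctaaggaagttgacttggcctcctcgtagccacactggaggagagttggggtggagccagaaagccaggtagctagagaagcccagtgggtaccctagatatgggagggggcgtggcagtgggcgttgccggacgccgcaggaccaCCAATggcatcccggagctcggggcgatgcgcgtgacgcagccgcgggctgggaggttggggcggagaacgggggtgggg

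The Hmgcs1 window held a sterol regulatory element, with its first base 137 bases upstream of the start, and 4 CCAAT boxes. Mvd held 2 CCAAT boxes, Cyp51 1 and Soat1 1, and the printed windows of these 3 had no match to the sterol element as searched. That search let no letter but N vary, so sterol elements of another spelling were missed. A lack of match, here and in the counts below, therefore does not show that a window lacks such an element. Windows of 26 of the 34 members were found, all but Fdps, Fdft1, Sqle, Scd1, Scd2, Npc1, Abcg1 and Lpl. Among these 26, 1 held TCACNCCAC (Hmgcs1), against 1.44% of all 27025 genes with a window, on either strand. A shorter core, CACNCCAC, which every match to TCACNCCAC also holds and which was added after the first count was seen, matched in 3 (Acat2, Hmgcs1 and Insig1), against 7.12% of genes. CCAAT matched in 21 of 26, against 41.1% of genes, and the GC box GGGCGG in 22, against 38.2%. The E-box CACGTG matched in 6 of 26 (Abca1, Dhcr7, Hsd17b7, Insig1, Sc5d and Scap), against 8.09%, and the GATA motif AGATAA in 2 (Insig2 and Npc2), against 12.7%. The PU.1 motif GAGGAAGT matched in 2 (Acat2 and Scap), against 3.69%. Members with more than 1 window counted as matched when any window matched, and a match describes letters in a window, not a bound site.

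Sterol sensing genes had a median log2 fold change of 0.18, with 4 of the 5 positive. In 2 of the 5 the genotypes did not overlap, against 46.5% of all genes tested. None of the 5 genes passed by limma, where 32.2% of all genes tested did. Among them 1 had an unadjusted limma p under 0.05, and edgeR, DESeq2 and limma-voom each called none. Srebf2, whose product mainly drives cholesterol synthesis, had 1741, 1662 and 1802 in -77-/-, against 1494, 1297 and 1308 in wild type (log2 fold change 0.35 with an SE of 0.13, limma adjusted p = 0.0507). Its -77-/- libraries lay above all wild type libraries by a small margin, and it passed with a higher filter on the mean (adjusted p = 0.0367), without the robust option (0.0445) and without wild type library 1 (0.0424; range 0.0367 to 0.162). Srebf1, whose product mainly drives fatty acid synthesis, had 952, 932 and 1025 in -77-/-, against 956, 945 and 693 in wild type (log2 fold change 0.18 with an SE of 0.17, limma adjusted p = 0.441), with overlap. Insig1, itself a well known SREBP target, had 942, 934 and 1247 in -77-/-, against 861, 824 and 904 in wild type (log2 fold change 0.26 with an SE of 0.16, limma adjusted p = 0.247), without overlap. Insig2, which sterol control reaches less, had 228, 300.4 and 241 in -77-/-, against 206, 301 and 439.9 in wild type (log2 fold change -0.24 with an SE of 0.30, limma adjusted p = 0.565), spread widely in wild type. Scap averaged 1109 ± 93.7 in -77-/- and 1050.4 ± 75.9 in wild type. The 95% intervals of all 5 log2 fold changes lay within a 2-fold change in either direction, from -0.88 at the lowest to 0.62 at the highest.

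Fatty acid synthesis showed a split at the desaturation step. Acaca, which makes malonyl-CoA, averaged 3909 ± 205 in -77-/- and 3604 ± 279 in wild type (log2 fold change 0.12 with an SE of 0.11, limma adjusted p = 0.427). Fasn, the fatty acid synthase, averaged 4791 ± 735 in -77-/- and 4176 ± 454 in wild type (log2 fold change 0.19 with an SE of 0.13, limma adjusted p = 0.275). Neither passed, and for each the genotypes overlapped. Scd1, which puts a double bond into stearoyl-CoA, had 199, 66.1 and 41.0 in -77-/- libraries 1 to 3, against 1614, 1245 and 809 in wild type libraries 1 to 3 (log2 fold change -3.83 with an SE of 0.58, limma adjusted p = 0.0022). All 3 wild type libraries were far above, with -77-/- library 1 the highest of its genotype. Scd2, a desaturase of the same family, moved the other way, with 20875, 18615 and 20739.7 in -77-/-, against 16614, 15334 and 16469 in wild type (log2 fold change 0.31 with an SE of 0.09, limma adjusted p = 0.0116), a rise of 1.24-fold. The call of Scd2 ended without -77-/- library 1 or 3 and without wild type library 2 (limma adjusted p = 0.0560, 0.0631 and 0.0666, range 0.0013 to 0.0666), though the genotypes did not overlap. Per base of exon in GENCODE M21, Scd1 took 1.06%, 0.395% and 0.220% of the summed Scd1 and Scd2 level in -77-/-, against 9.79%, 8.32% and 5.20% in wild type. Scd2 thus made up most of the pair's level in both genotypes on this scale. These paralogues are similar in sequence, and reads shared between them could have been split by the authors' counting.

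Endosomal release, efflux and storage genes rose together. All 7 genes of this group were higher in -77-/- by limma, against 16.9% of all genes tested, and also by edgeR and DESeq2. Their median log2 fold change was 1.15. In 6 of 7 the genotypes did not overlap, against 46.5% of all genes tested. Leaving out 1 library at a time left 5 to 7 of them called. Abca1, the exporter that hands cholesterol to lipid-poor apolipoproteins, had 1132, 1204 and 917 in -77-/- libraries 1 to 3, against 159, 153 and 138 in wild type libraries 1 to 3 (log2 fold change 2.84 with an SE of 0.22, limma adjusted p = 1.2e-07). Abcg1, which exports cholesterol to more mature particles, had 1256, 1259.9 and 1179 in -77-/-, against 162, 114 and 183 in wild type (log2 fold change 3.03 with an SE of 0.23, limma adjusted p = 1.0e-07). Abca1 stood at 7.23-fold and Abcg1 at 8.04-fold, and for both the gap between the genotypes exceeded the spread within either. Soat1, which esterifies cholesterol in the endoplasmic reticulum, had 1832, 2461 and 2364 in -77-/-, against 192, 56.9 and 154 in wild type (log2 fold change 4.20 with an SE of 0.43, limma adjusted p = 1.9e-04). Wild type library 2 was the lowest of all, and the log2 fold change without it was 3.67.

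**Figure D2:**
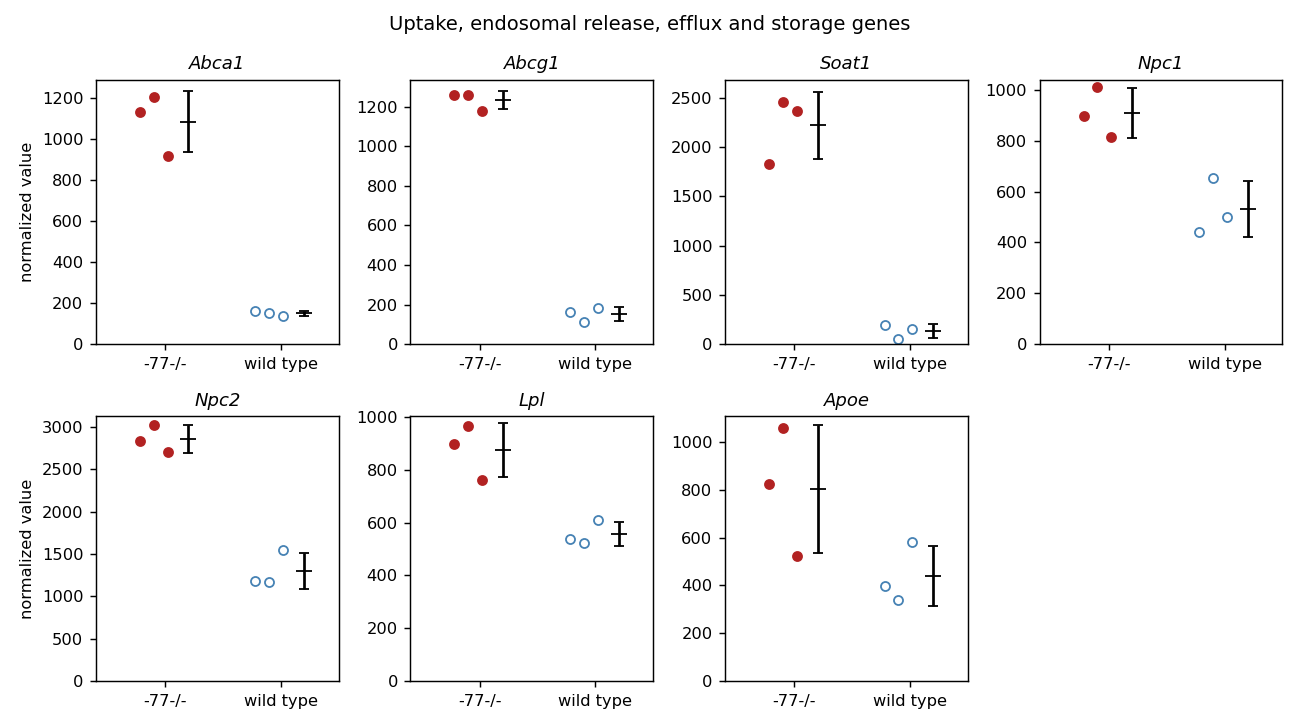
Normalized values of the 7 genes of uptake, endosomal release, efflux and storage, with points for libraries and a bar for the mean ± SD of 3 libraries per genotype, each axis starting at 0. In every panel but that of Apoe the -77-/- points lie above all wild type points, by the widest margin for Soat1 (2219 in -77-/- against 134 in wild type).

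The genes of the proteins that move cholesterol out of late endosomes rose as a pair. Npc2, the soluble carrier, had 2835, 3026 and 2703 in -77-/-, against 1180.2, 1173 and 1544 in wild type (log2 fold change 1.15 with an SE of 0.14, limma adjusted p = 1.1e-05). Npc1, the membrane transporter that receives it, had 898, 1010.1 and 814 in -77-/-, against 442, 655 and 500.3 in wild type (log2 fold change 0.78 with an SE of 0.19, limma adjusted p = 0.0053). Neither overlapped, and the log2 fold change stayed between 1.08 and 1.28 for Npc2 and between 0.66 and 0.94 for Npc1 when 1 library was left out. Lpl, the lipase that frees fatty acids from lipoproteins at the cell surface, had 899.8, 965 and 762 in -77-/-, against 539, 523 and 609 in wild type (log2 fold change 0.65 with an SE of 0.17, limma adjusted p = 0.0099), a 1.57-fold rise. Its call ended without -77-/- library 2 (limma adjusted p = 0.0588, range 0.0058 to 0.0588). Apoe, the apolipoprotein that carries exported lipid, had 824, 1058 and 524 in -77-/-, against 396, 339 and 582 in wild type (log2 fold change 0.85 with an SE of 0.27, limma adjusted p = 0.0274). It was the only member of the 7 with overlap, since -77-/- library 3 lay below wild type library 3, and the call ended without -77-/- library 1 or 2 and without wild type library 1 or 2 (limma adjusted p = 0.0895, 0.139, 0.0895 and 0.0994, range 0.0064 to 0.139).

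Apoe is also made by hepatocytes. Alb, albumin, a gene of these cells, had 34.6, 63.2 and 435 in -77-/-, against 89.1, 30.9 and 72.9 in wild type. The 10 measured hepatocyte and hepatoblast markers summed to 382 to 1457 in -77-/- and 118 to 277 in wild type, with 1 of 8 tested higher (Trf, transferrin) and none lower, and Apoa2 and Fgb at 0 in wild type. Markers of endothelial cells summed to 475 to 565 in -77-/- and 114 to 320.2 in wild type, with Pecam1 the member that rose, and those of stromal cells to 114 to 179.8 in -77-/- and 31.9 to 51.3 in wild type, with Pdgfrb the member that rose. Their part in the levels of Apoe and Lpl was not tested.

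Set side by side, uptake, efflux and storage genes among the members changed more than synthesis genes in their median, and all in the same direction. Summed over its members, the first group had 9263 to 10984 in -77-/- and 3013 to 3710.5 in wild type, without overlap, while the 18 synthesis enzymes had 9545 to 11232 in -77-/- and 8634 to 9881 in wild type, with overlap. In -77-/- libraries 1, 2 and 3, 7, 7 and 6 of the 7 genes exceeded every wild type library. For synthesis, 8, 4 and 6 of the 18 enzymes did so, and 5, 4 and 3 lay below every wild type library. The groups were not compared by a test, since they are lists of genes and not of replicates. Sums of the further lists described below did not all rise. Lipoprotein receptor and lipid uptake genes summed higher in -77-/-, without overlap. LXR and efflux genes summed to 4370 to 4717 in -77-/- and 4244 to 4869 in wild type, with overlap. Storage and breakdown genes summed lower, to 6022 to 6539 in -77-/- and 7244 to 7586 in wild type, without overlap.

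**Figure D3:**
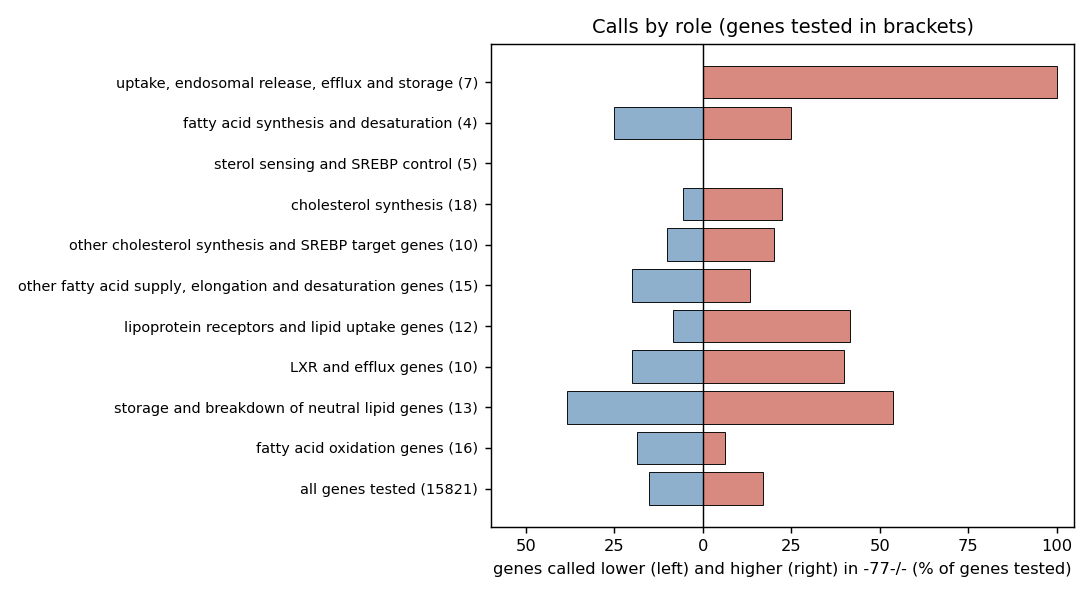
Share of tested genes called higher (right) or lower (left) in -77-/- by limma at an adjusted p of 0.05, for the 4 roles among the members, 6 further lists of lipid genes and all genes tested, with the number tested in brackets. All 7 uptake, release, efflux and storage genes were called higher and none of the 5 sterol sensing genes was called, against 16.9% higher and 15.2% lower over all genes.

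Further genes of these pathways lay outside the 34. Of 10 other cholesterol synthesis and SREBP target genes 2 were higher, 1 was lower and 7 did not pass, a share of calls near the 32.2% of all genes tested. Mylip, a ubiquitin ligase and a known LXR target, had 341, 312 and 339.8 in -77-/-, against 222, 145 and 139 in wild type (log2 fold change 1.00 with an SE of 0.29, limma adjusted p = 0.0142), and its call ended without -77-/- library 3 (range 0.0097 to 0.0634). Stard4, a carrier of cholesterol between membranes, fell, with 979, 918 and 908 in -77-/-, against 1270.3, 1516 and 1716 in wild type (log2 fold change -0.67 with an SE of 0.15, limma adjusted p = 0.0028).

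Among 12 lipoprotein receptor and lipid uptake genes 5 were higher (41.7%) and 1 was lower (8.33%), against 16.9% and 15.2% of all genes tested. With edgeR, though, 2 were higher, and leaving out 1 library left 1 to 5 higher. Lrp1, a large endocytic receptor that binds APOE, had 4034, 4753 and 4040.03 in -77-/-, against 294, 228 and 91.2 in wild type (log2 fold change 4.54 with an SE of 0.43, limma adjusted p = 4.3e-04). The scavenger receptor Msr1 had 22.4, 49.6 and 31.6 in -77-/-, against 7.51, 0 and 0 in wild type, and the fatty acid transporter Slc27a1 145, 111 and 92.2 in -77-/-, against 9.38, 49.9 and 38.7 in wild type. They rose by 4.05 and 2.06 on the log2 scale, but each call ended with edgeR and without any 1 of the -77-/- libraries (ranges of adjusted p 0.0143 to 0.125 and 0.0172 to 0.108). Fabp5, a fatty acid binding protein, fell, with 734, 612 and 628 in -77-/-, against 1426, 2123 and 1477 in wild type (log2 fold change -1.33 with an SE of 0.17, limma adjusted p = 3.1e-05). Lrp1 alone accounted for a large part of the level of this list in -77-/-, whose libraries summed to 10839.9 to 11382 in -77-/- and 6588 to 7092 in wild type.

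The LXR and efflux list held the sharpest opposite pair. LXR is a nuclear receptor of oxysterols that, with its partner RXR, switches on export genes. Of 10 tested genes 4 were higher (40%) and 2 lower (20%), against 16.9% and 15.2% of all genes tested, and 1 further gene was below the filter. Abcg4, the closest relative of Abcg1, had 21.4, 4.86 and 23.9 in -77-/-, against 746, 684 and 879 in wild type (log2 fold change -5.69 with an SE of 0.53, limma adjusted p = 9.4e-07), so Abcg4 was low where Abcg1 was high. Cyp27a1, which makes an oxysterol, had 109, 122 and 101 in -77-/-, against 7.51, 0 and 1.14 in wild type (log2 fold change 5.40 with an SE of 1.07, limma adjusted p = 0.0012). Arl4c, a small GTPase known as an LXR target, had 614, 617 and 543 in -77-/-, against 32.8, 38.9 and 69.5 in wild type (log2 fold change 3.70 with an SE of 0.36, limma adjusted p = 1.4e-06). Rxra, which encodes the partner of LXR, fell, with 148, 161 and 197 in -77-/-, against 636, 499 and 481 in wild type (log2 fold change -1.67 with an SE of 0.25, limma adjusted p = 1.2e-04).

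Storage and breakdown of neutral lipid had the highest share of calls among the further lists, 7 higher and 5 lower of 13. These shares were 53.8% and 38.5%, against 16.9% higher and 15.2% lower of all genes tested. The genotypes were apart in all 13, against 46.5% of all genes tested. Soat2, the other cholesterol esterifying enzyme, had 18.3, 21.4 and 24.8 in -77-/-, against 99.4, 119.7 and 154 in wild type (log2 fold change -2.47 with an SE of 0.59, limma adjusted p = 0.0048), opposite to Soat1. Mgll, a monoacylglycerol lipase that lies near Gata2, had 0, 5.83 and 9.39 in -77-/-, against 193, 143 and 136 in wild type (log2 fold change -5.24 with an SE of 0.99, limma adjusted p = 8.3e-04). Whether the position of Mgll bears on its level was not tested. Lpin1, a phosphatidate phosphatase on the way to triglyceride, had 268, 223 and 93.1 in -77-/-, against 782, 638 and 786 in wild type (log2 fold change -2.04 with an SE of 0.34, limma adjusted p = 5.0e-04). These 3 fell in every -77-/- library. Dgat2, which completes triglyceride, rose by 1.67 on the log2 scale with 183, 175 and 195 in -77-/-, against 29.1, 41.9 and 153 in wild type, and its call ended with edgeR, DESeq2, without the robust option, and without any 1 of the -77-/- libraries or of wild type libraries 1 and 2 (range of adjusted p 8.8e-04 to 0.132). Without -77-/- library 2 the count of higher genes was 2, without -77-/- library 3 it was 4 and without wild type library 2 it was 4, while the 5 lower calls remained in number.

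**Figure D4:**
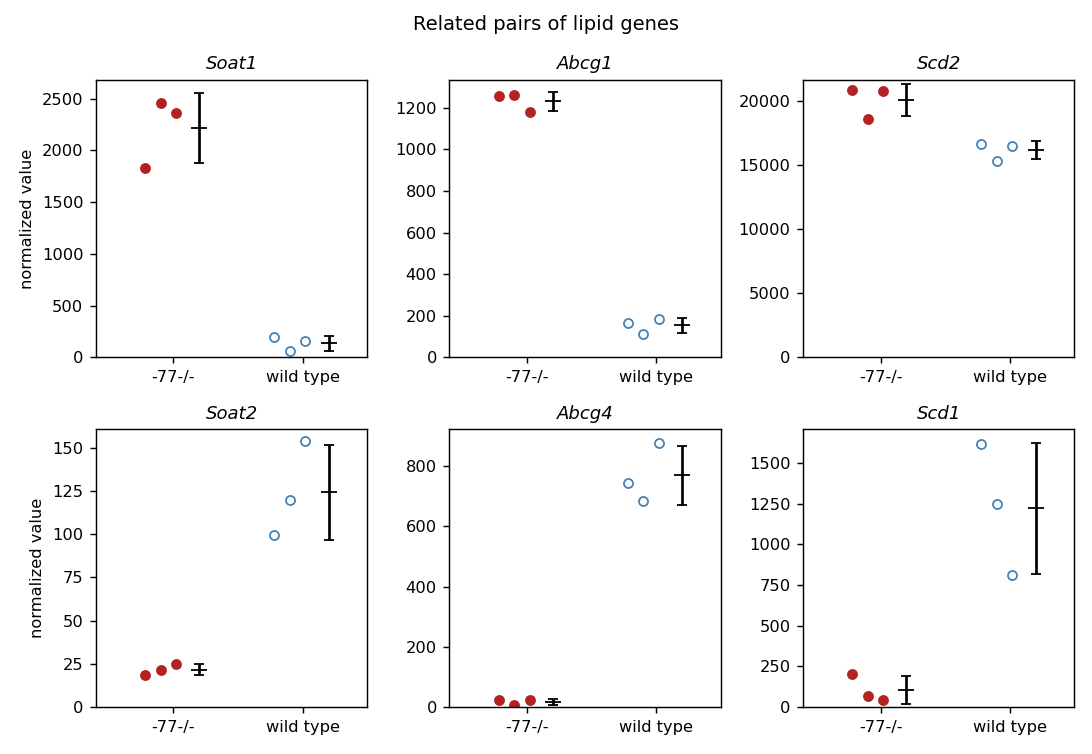
Normalized values of 3 pairs of related genes, with points for libraries and a bar for the mean ± SD of 3 libraries per genotype, each axis starting at 0 and differing between panels. Soat1, Abcg1 and Scd2 (top) were higher in -77-/-, while Soat2, Abcg4 and Scd1 (bottom) were lower, with log2 fold changes of -2.47, -5.69 and -3.83.

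Among 15 genes of fatty acid supply and elongation, 2 were higher and 3 lower, a share of calls near the 32.2% of all genes tested. Acss2, which makes cytosolic acetyl-CoA from acetate, had 76.3, 66.1 and 77.7 in -77-/-, against 645, 651 and 1027 in wild type (log2 fold change -3.35 with an SE of 0.29, limma adjusted p = 4.1e-07). Slc25a1, the mitochondrial citrate carrier that exports the carbon for lipid synthesis, had 902, 629 and 618 in -77-/-, against 1281, 1119 and 1201 in wild type (log2 fold change -0.76 with an SE of 0.17, limma adjusted p = 0.0034). Both were lower in every -77-/- library. Acly, the citrate lyase of the same list, did not pass (log2 fold change 0.16 with an SE of 0.10, limma adjusted p = 0.269). It had 3441, 3241 and 3435 in -77-/-, against 2977, 2934 and 3153 in wild type, higher without overlap. Elovl5, an elongase of polyunsaturated fatty acids, rose, with 2144, 1966 and 2304 in -77-/-, against 1119, 1021 and 991 in wild type (log2 fold change 1.03 with an SE of 0.13, limma adjusted p = 2.2e-05), and Elovl7, another elongase, with 205, 221 and 233 in -77-/-, against 61.9, 41.9 and 92.3 in wild type (log2 fold change 1.80 with an SE of 0.41, limma adjusted p = 0.0034). Among 16 genes of fatty acid oxidation, 12 did not pass, 3 were lower (18.8%) and 1 was higher (6.25%), against 15.2% and 16.9% of all genes tested. Acadvl, an acyl-CoA dehydrogenase of long chains, and the trifunctional protein subunits Hadhb and Hadha had log2 fold changes of -0.69, -0.42 and -0.35. Without -77-/- library 2, 1 oxidation gene was called lower.

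The authors' counting can touch some of these values. The strand setting was not given in the sources used here. In GENCODE M21 exons of Cyp51 overlap the antisense gene Akap9, those of Fdft1 overlap Ctsb, and those of Npc1 overlap Rmc1. Exons of Scap, Lss, Idi1 and Srebf1 also overlap antisense genes (5830462I19Rik, 4930483K19Rik, Gm48574 and Rai1). Reads of such partners cannot be told apart without strand. Akap9 had a log2 fold change of -0.08 (limma adjusted p = 0.619) and Ctsb one of 0.42 (0.0128). Fdps shares exon bases with Gm43738, and Tm7sf2 with Vps51, each on its own strand. Acat2 is similar in sequence to Acat3, so the values of Fdps, Tm7sf2 and Acat2 are uncertain to that extent. Nsdhl and Ebp are X-linked, and wild type library 2 alone expressed Xist, at 41877, against at most 63.2 in the other 5 libraries, so the genotypes were not balanced for sex.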

How the data were processed

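Sorted fetal liver cells gave 6 RNA libraries, each amplified from 10 ng of RNA (NuGEN Ovation, single reads of 50 nt), per the labels' protocols and the series' design text. Mapping and counting involved STAR 2.5, Bowtie, RSEM 1.2.31, DESeq2 and build mm9, per the submitters' processing notes. The authors deposited 1 table with a normalized signal per gene and library, a mean of these, and log2 fold changes, p-values and test scores (SE and Wald statistic) of their DESeq2 comparison. The library values were whole multiples of 1 step per library (100% within 0.01 of a read), so whole reads were recovered by dividing by it. In 8 of 19444 rows the cells were moved sideways; these were left out.

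The test was limma 3.58.1 in R 4.3.3 with trend and robust options, on log2(value + 1), over 15821 genes with a mean of at least 10 in the higher genotype, with Benjamini-Hochberg adjustment at 0.05; fold changes on this scale understate those of low genes. Alternatives were edgeR 4.0.16, DESeq2 1.42.0 and limma-voom on recovered reads, TMM scaling, other pseudocounts and filters, no robust option, and each library left out. The tests were checked on simulated counts. Replicates follow the order of the sample records and pair nothing. Pairs of libraries differed by more than counting error (chi-square over its degrees of freedom at least 18.2), so none counted as a duplicate. A count of 3 reads, the floor, equals 2.56 to 3.42 normalized reads and covers counting error only.

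Members and lists were chosen with earlier results of these data known. All members are named, with library values for those called and for related pairs. From each further list the up to 4 called genes with the largest fold change are named, and Acly besides. A few that this rule covers are not reported here. Of those lists, 77 of 82 entries were matched by symbol or Ensembl ID. Promoter windows came from RefSeq, GRCm38.p6.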

Additional observations from a re-analysis of the deposited data

How the results depend on the processing

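Over 15 alternatives the 34 genes gave 510 values, of which 492 kept the side of the threshold, 12 lost a call, 6 gained 1 and none of the called genes turned its sign. With a filter at a mean of 50, 2 synthesis enzymes were lower and 1 sterol sensing gene was higher; limma-voom also gave 2 lower synthesis enzymes, and dropping the robust option gave 1 higher sterol sensing gene. With edgeR, 2 lipoprotein receptor and uptake genes were higher. Leaving out 1 library at a time gave 10 to 12 higher and 1 to 2 lower calls among the 34, 0 to 1 lower synthesis enzymes, 0 to 1 higher sterol sensing genes and 0 to 1 higher fatty acid synthesis genes. In the further lists it gave 0 to 4 higher other sterol synthesis genes, 1 to 5 higher uptake genes, 2 to 6 higher storage genes, and 0 to 1 higher and 1 to 4 lower oxidation genes. A fit without a library rests on fewer samples; beyond that the cause was not tested. No paired analysis was possible because the labels carry no replicate numbers shared between the genotypes. Depth limits Tm7sf2 most, with 132 reads in -77-/- and 165 in wild type over 3 libraries each.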
